A study of Mus musculus with 9 samples.

Results

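The miR-193 and miR-365 genes lie side by side in 2 paralogous clusters of the mouse genome, and 5 of the 1164 rows of the deposited count table carry their names: mmu-miR-365, mmu-miR-365-1, mmu-miR-365-2, mmu-miR-193a and mmu-miR-193b (the prefix is left out from here on). The rows were taken by name, and the group was chosen by the measured counts of miR-365-2, already known to be high in Bbs4-/- against both other genotypes. Of the 5 rows, miR-365 and miR-193a had a count in all 9 libraries, miR-365-2 had counts mainly in Bbs4-/- libraries, miR-193b had a total of 4 counts, and miR-365-1 had none. The RNA came from small extracellular vesicles (smEVs), which were pelleted by differential centrifugation from the medium of immortalised mouse kidney medullary (KM) cells kept for 24 h without serum. Bbs4-/- cells lack a subunit of the BBSome, the coat complex that carries membrane proteins to and from the primary cilium, Bbs6-/- cells lack a chaperonin-like protein needed to assemble that complex, and wild-type (WT) KM cells served as control. Each genotype was represented by a single cell line with 3 smEV libraries, so an effect of the genotype and a property of the line cannot be told apart, and the spread between libraries is that between vesicle preparations.

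A miRNA gene is transcribed as a long precursor that Drosha trims to a hairpin, and Dicer cuts the hairpin into a duplex of a 5p and a 3p arm. As a rule an Argonaute protein keeps a single arm, the guide, and the other is lost, so the 2 arms of a hairpin usually differ widely in abundance. Bases 2 to 8 of the guide form the seed, which pairs with target mRNAs. The miR-193b and miR-365 cluster has been studied in brown fat and in muscle, and miR-193a is known in the kidney for its effect on podocytes, where it represses the transcription factor WT1.

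The mature sequences show which row can be assigned to which gene, and are printed for that reason with the seed in capitals, 5′ to 3′, from RefSeq on GRCm38.p6.
miR-365-2-5p: aGGGACUUucaggggcagcugug
miR-365-1-5p: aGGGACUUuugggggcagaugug
miR-365-3p: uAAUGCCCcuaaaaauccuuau
miR-193a-3p: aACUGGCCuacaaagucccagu
miR-193b-3p: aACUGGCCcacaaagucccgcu
miR-193a-5p: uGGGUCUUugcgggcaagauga
miR-193b-5p: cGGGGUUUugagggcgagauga
The 3p arm of miR-365 is the same in both genes, so the row miR-365 cannot be assigned to a locus. The 5p arms differ, and in RefSeq only these carry a gene number. By name, therefore, the rows miR-365-1 and miR-365-2 correspond to the 5p arms and the row miR-365 to the 3p arm. No row name in the table holds an arm suffix. The reads themselves were not analysed here, so the arm is known from the name alone. For miR-193a and miR-193b both arms lead to the same row name, and the row may hold either.

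Counted from 1 at the 5′ end, miR-365-1-5p differs from miR-365-2-5p at 3 of 23 positions (C10U, A11G and C19A), none of which lies in the seed. The longest run of bases that miR-365-2-5p shares with any of 1678 other mouse mature miRNAs is 9, a length reached by miR-365-1-5p, miR-6397, miR-6945-5p and miR-8113. The seed of miR-365-2-5p is shared with miR-365-1-5p and with no other mature miRNA of the table of RefSeq sequences. The 3p arms of miR-193a and miR-193b also have a seed in common, and differ at 3 of 22 positions (U9C, A20G and G21C). No other mature miRNA of that table carries the seed of miR-365-3p. The 4-base motifs GGAG and CCCU have been linked to the loading of miRNAs into vesicles. Searched in the mature strand, GGAG occurs in 14.2% and CCCU in 11.4% of 1679 mature miRNAs. Among the 7 arms printed above, CCCU is found in miR-365-3p and GGAG in none.

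Both hairpins of miR-365 are printed because the numbered rows stand for a stretch of each, with the 5p and the 3p arm in capitals.
Mir365-2, chr11:79726400-79726511, plus strand: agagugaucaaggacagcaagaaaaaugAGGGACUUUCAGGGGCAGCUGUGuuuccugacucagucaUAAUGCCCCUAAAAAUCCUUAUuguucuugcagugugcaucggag
Mir365-1, chr16:13453840-13453926, plus strand: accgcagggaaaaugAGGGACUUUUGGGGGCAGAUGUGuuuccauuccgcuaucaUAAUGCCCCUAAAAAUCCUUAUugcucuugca
In the GENCODE annotation of GRCm38, Mir193a lies at chr11:79711969-79712034 on the plus strand, 14365 bp before Mir365-2. Neither overlaps another annotated gene, and the nearest is the lincRNA Gm11205, which ends 6548 bp before Mir193a on the same strand. On chromosome 16 Mir193b, at chr16:13449523-13449601 on the plus strand, ends 4238 bp before Mir365-1. Both lie within an intron of the antisense gene Gm15738, which is transcribed from the opposite strand.

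**Figure D1:**
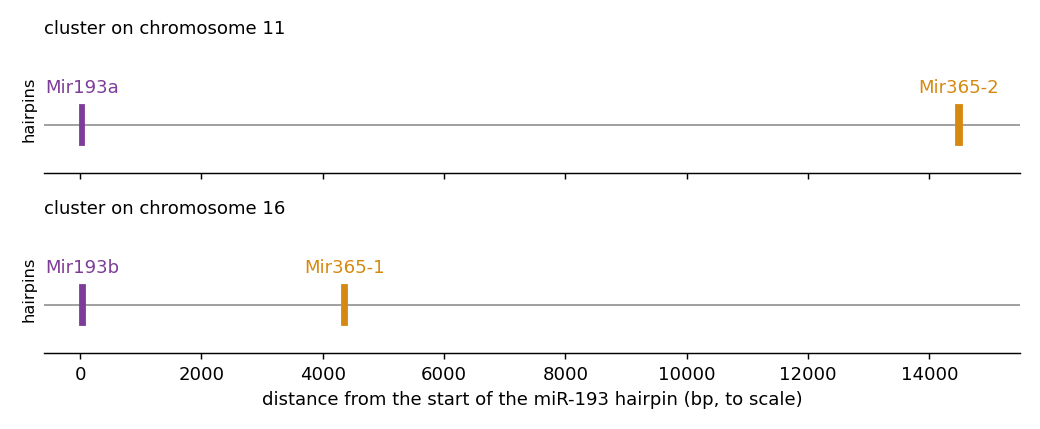
Map of both clusters, with the distance in bp from the start of the miR-193 hairpin on the x axis and the hairpins as boxes to scale. Mir365-2 starts 14431 bp after Mir193a, and Mir365-1 starts 4317 bp after Mir193b.

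Library totals ran from 176935 to 457163 counts for Bbs4-/-, from 192654 to 423784 for Bbs6-/- and from 64118 to 130905 for WT smEVs, so WT had the least depth. Libraries are named by their numbers in the deposited table. Levels are given as CPM, counts per 1000000 of a library total scaled by edgeR's TMM method. On this scale 3 counts, taken as the approximate 95% upper limit for a count of 0, correspond to 6.98 to 36.5 CPM. Replicate 2 of Bbs6-/- stood apart from the other Bbs6-/- libraries, since chi-square divided by its degrees of freedom was 86.2 and 110 against them and 12.4 to 39.8 for the other pairs of the same line. Of the marker lists, the 5 epithelial miRNAs summed to 9993 to 21410 CPM over the 9 libraries. Among them, however, miR-200c had at most 2 counts and miR-141 none in WT. Both were also low in Bbs6-/- replicate 2. There miR-200c had 32 counts, against 1069 and 1542 in the other Bbs6-/- libraries, and miR-141 had 1, against 57 and 62. The 6 kidney miRNAs summed to 53831 to 121809 CPM, most of it miR-10a and miR-30a, while miR-192, miR-194 and miR-204 had at most 61 counts in a library. The blood list (6 of 7 in the table) summed to 37.6 to 170 CPM, the endothelial list to at most 136 CPM, liver miR-122 to at most 85.1 CPM and the brain list to at most 467 CPM. Muscle and mesenchyme miRNAs (8 of 9 in the table) summed to 1015 to 2503 CPM, most of it miR-206, while miR-133b, miR-145a and miR-214 were at 0 in every library.

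The row miR-365-2 had 46, 35 and 72 counts in the 3 Bbs4-/- libraries. In Bbs6-/- it had 1, 2 and 0 counts, and in WT 0, 0 and 1. All 3 Bbs4-/- libraries lay above all 6 others, and no library of Bbs6-/- or WT held more than 2 counts. Scaled, this was 291, 157 and 168 CPM in Bbs4-/- (mean 205 ± 74.5, SD, n = 3), against at most 6.84 CPM in Bbs6-/- and at most 6.46 CPM in WT. These maxima are observed values and not upper limits. For the libraries with 0 counts, the limit of 3 counts was 36.5 and 26.7 CPM in WT replicates 1 and 3, and 8.59 CPM in Bbs6-/- replicate 4. By count miR-365-2 ranked 102nd, 127th and 114th among the 286, 303 and 309 rows detected in the Bbs4-/- libraries, so it belonged to the upper part of the detected cargo there. From the pooled counts, 153 against 1, the level in Bbs4-/- was 65.9 times that in WT, with a 95% exact interval of 11.7 to 2619 that covers counting error only. Against Bbs6-/-, with 153 and 3 counts, the ratio was 51.8 (95% exact interval 17.4 to 254). In vesicle RNA, more vesicles that carry a miRNA and more copies per vesicle cannot be told apart.

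**Figure D2:**
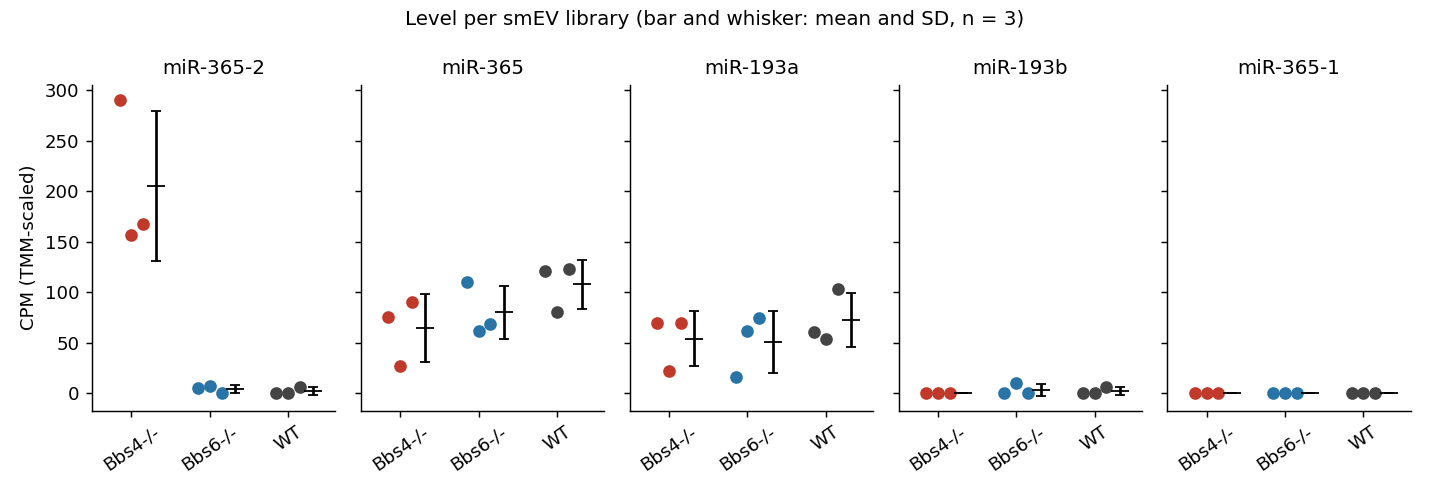
Level of the 5 rows in each smEV library, in TMM-scaled CPM on the y axis, by genotype. Points are libraries, and the bar and whisker are the mean and SD of 3; miR-365-2 reached 157 to 291 CPM in Bbs4-/- and at most 6.84 CPM in the others, whereas the genotypes overlapped for miR-365 and miR-193a.

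In contrast to the numbered row, miR-365 had 12, 6 and 39 counts in Bbs4-/-, 20, 18 and 24 in Bbs6-/- and 10, 9 and 19 in WT. This is the shared 3p arm by name, which is usually the guide of the hairpin. It reached 75.9, 26.9 and 90.8 CPM in Bbs4-/- (mean 64.5 ± 33.4, SD, n = 3), 109.8, 61.5 and 68.7 CPM in Bbs6-/- (80.0 ± 26.0) and 121.6, 80.1 and 123 CPM in WT (108 ± 24.3). The order of the means was WT, Bbs6-/-, Bbs4-/-, with overlapping libraries and neighbours less than 2 SD apart. Within the Bbs4-/- libraries miR-365-2 therefore outnumbered miR-365, and in all 6 other libraries it did not.

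Expressed as a share of the 2 rows, which does not depend on how libraries are scaled, miR-365-2 made up 79.3% of miR-365-2 plus miR-365 in Bbs4-/- replicate 1 (46 of 58 counts), 85.4% in replicate 2 (35 of 41) and 64.9% in replicate 3 (72 of 111). The lowest bound of their 95% Clopper-Pearson intervals was 55.2%. In Bbs6-/- the share was 4.76%, 10% and 0%, and in WT 0%, 0% and 5%. The highest upper bound among these 6 libraries was 33.6%, in a WT library with 9 counts in all. The intervals of Bbs4-/- and of the other lines did not overlap, but they cover counting error only and not the spread between preparations. As means, the shares were 76.5 ± 10.5% in Bbs4-/-, 4.92 ± 5.0% in Bbs6-/- and 1.67 ± 2.89% in WT (SD, n = 3 each). All these shares use the contrast for which the rows were chosen, and are given without a test.

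**Figure D3:**
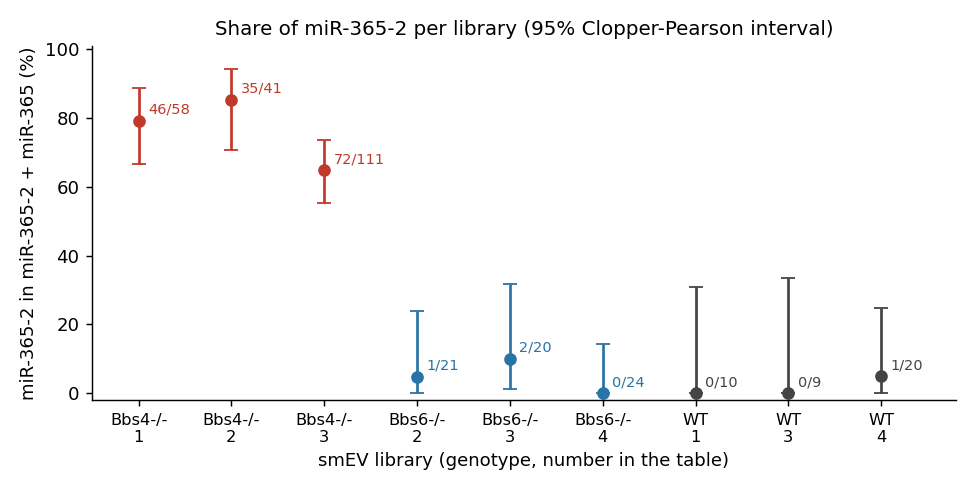
Share of miR-365-2 in the sum of miR-365-2 and miR-365 (%, y axis) in each of the 9 libraries (x axis), with 95% Clopper-Pearson intervals that cover counting error only and the counts beside each point. The Bbs4-/- libraries lie at 64.9% to 85.4% and all others at 10% or below.

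The cluster partner miR-193a, transcribed from the same strand as Mir365-2, had 11, 5 and 30 counts in Bbs4-/-, 3, 18 and 26 in Bbs6-/- and 5, 6 and 16 in WT. Its level was 69.5, 22.4 and 69.8 CPM in Bbs4-/- (mean 53.9 ± 27.3, SD, n = 3), 16.5, 61.5 and 74.4 CPM in Bbs6-/- (50.8 ± 30.4) and 60.8, 53.4 and 103.4 CPM in WT (72.5 ± 27.0). The genotypes overlapped, and every pair of means differed by less than 1 SD. Pooled counts gave a ratio of Bbs4-/- to WT of 0.734 (95% exact interval 0.447 to 1.23, counting error only) and of Bbs4-/- to Bbs6-/- of 0.995 (0.648 to 1.53). The 65.9-fold ratio of miR-365-2 thus had no counterpart in the row of its neighbour 14365 bp away.

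Within single libraries, the log2 ratio of miR-193a to miR-365, with 0.5 added to each count, ran from -2.55 to 0.11. Its mean was -0.24 ± 0.13 in Bbs4-/-, -0.57 ± 0.35 in WT and -0.81 ± 1.51 in Bbs6-/- (SD, n = 3 each). The wide spread in Bbs6-/- came from replicate 2, with 3 counts of miR-193a and 20 of miR-365. Without that library the Bbs6-/- mean was 0.06, and the other libraries had 18 counts of each row, or 26 and 24. Summed over 3 libraries, there were 0.807 counts of miR-193a per count of miR-365 in Bbs4-/-, 0.758 in Bbs6-/- and 0.711 in WT.

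From the chromosome 16 cluster little was found. The miR-193b row had 3 counts in replicate 3 of Bbs6-/-, 1 count in replicate 4 of WT, and 0 in the 7 other libraries. Not a single count was listed for miR-365-1. Over the 3 libraries of a genotype, the same limit of 3 counts for 0 counts of miR-365-1 is, unscaled, 3.54 CPM in Bbs4-/-, 3.198 CPM in Bbs6-/- and 9.96 CPM in WT. At this depth neither row can show a difference between the lines. For the 3p arm in the row miR-365, the sequence does not tell which locus it came from.

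edgeR's quasi-likelihood fits over all miRNAs tested place these values among the other rows. Called rows are those with an adjusted p (Benjamini-Hochberg) below 0.1 whose log2 fold change was 2 or more, up or down, which are the thresholds of the study. In Bbs4-/- against WT, miR-365-2, miR-365 and miR-193a passed the filter on low counts and 1 of these 3, miR-365-2, was called, where 6.17% of all 308 tested miRNAs were called (3.9% higher, 2.27% lower). Between the mutants the same 3 rows were tested and miR-365-2 was called, where 3.88% of 309 miRNAs were called (1.29% higher, 2.59% lower); without replicate 1 of Bbs4-/- the number called there fell from 12 to 7. In Bbs6-/- against WT, miR-365 and miR-193a were tested and neither was called, where 4.03% of 298 were (2.68% higher, 1.34% lower). With 1 count in WT and 3 in Bbs6-/-, miR-365-2 passed the filter only through the Bbs4-/- libraries, where it is high. For that reason, and since the rows were chosen with these contrasts known, nothing is read from the counts of calls. With libraries scaled by total count in place of TMM, the higher and lower calls were 12 and 11 in Bbs4-/- (12 and 7 with TMM) and 8 and 9 in Bbs6-/- (8 and 4 with TMM).

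The fitted log2 fold change of miR-365-2 was 5.78 (standard error 0.84) in Bbs4-/- against WT and 5.56 (standard error 0.85) against Bbs6-/-. These errors derive from the F statistic and make the values look better known than they are. DESeq2 gave 5.93 (standard error 1.37) against WT and 5.68 (standard error 1.11) against Bbs6-/-. With 1 WT count, counting error alone spanned ratios to WT of 11.7 to 2619. Without replicate 4 of WT, which held the only WT count, the edgeR value against WT became 8.34, and then depends on the prior count of the fit. Corresponding values of miR-365 were -0.84 (standard error 0.57) and -0.28 (standard error 0.56), and those of miR-193a -0.57 (standard error 0.64) and 0.06 (standard error 0.68). In Bbs6-/- against WT they were -0.45 (standard error 0.51) for miR-365 and -0.46 (standard error 0.71) for miR-193a. Each value of miR-193a was smaller than its error, as were those of miR-365 except in Bbs4-/- against WT. Both comparisons of a mutant with WT share the WT libraries.

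**Figure D4:**
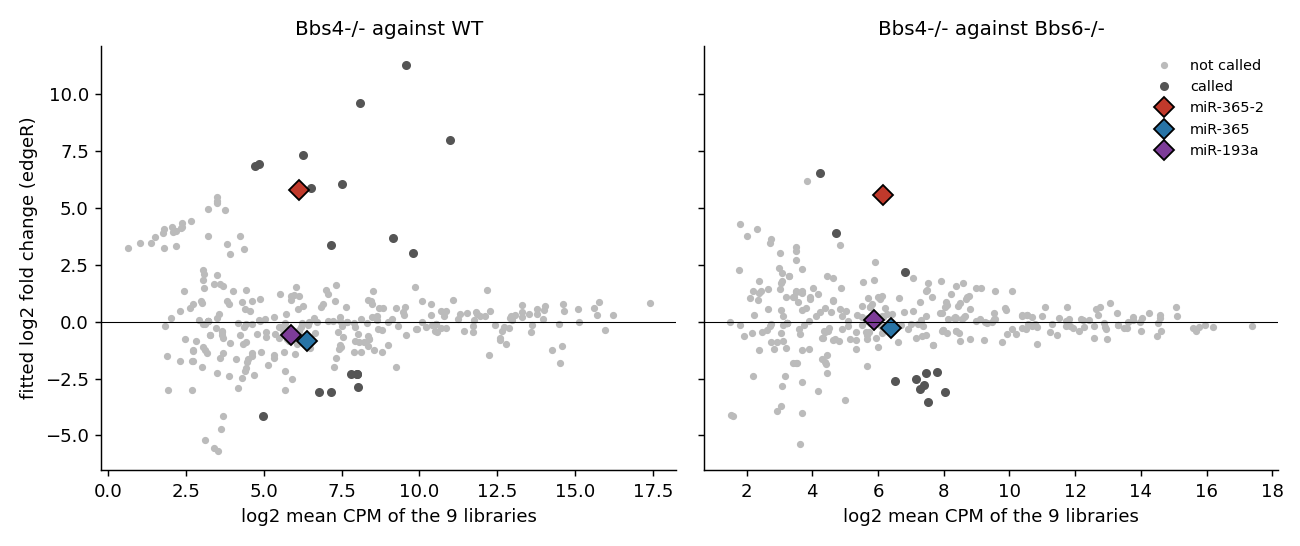
Fitted log2 fold change (y axis, edgeR) against the log2 mean CPM of the 9 libraries (x axis) for each miRNA tested in Bbs4-/- against WT and against Bbs6-/-. Called miRNAs are dark, and diamonds mark miR-365-2 (5.78 and 5.56), miR-365 (-0.84 and -0.28) and miR-193a (-0.57 and 0.06).

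Rows of the same kind as miR-365-2 are those named for another row with a gene number added. The table holds 61 of them, of which 32 had no count and 21 had at least 9 counts. All 21 stand, by RefSeq name, for a single arm while the base row stands for the opposite arm. In 3 of the 21 the numbered row exceeded its base row in the summed Bbs4-/- counts: miR-365-2 with 153 against 57, miR-29b-1 with 93 against 71 and miR-219a-1 with 10 against 0. In Bbs6-/- this held for miR-219a-1 alone, with 3 against 1, and in WT for none. miR-29b-1 differed from miR-365-2 in that its share of the 2 rows was 25.4% in Bbs6-/- and 33.3% in WT, and 56.7% in Bbs4-/-. In Bbs4-/- against WT, 17 of the numbered rows were tested and 2 were called, miR-365-2 and miR-194-2, both higher (11.8%, beside 6.17% of all miRNAs tested). Between the mutants 21 were tested and the same 2 were called, again higher in Bbs4-/- (9.52%, beside 3.88%). Both called rows passed the filter only through their Bbs4-/- counts. Both shares include miR-365-2, for whose counts the group was chosen, so they are not read as a trait of numbered rows. In Bbs6-/- against WT, 16 were tested and 1, miR-125b-1, was called lower (6.25%, beside 4.03%). The median log2 fold change of the tested numbered rows was 0.18 in Bbs4-/- against WT (-0.02 over all miRNAs tested), 0.55 in Bbs6-/- against WT (-0.01) and 0.35 between the mutants (0.04). In Bbs6-/- against WT, the tested rows let-7f-1, miR-24-1, miR-26a-2 and miR-450a-1 (3.95 to 4.17) had no WT count. They passed the filter through Bbs6-/- libraries alone, and let-7a-1 and let-7c-2 hold identical counts. Nothing about numbered rows is therefore read from these medians.

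**Figure D5:**
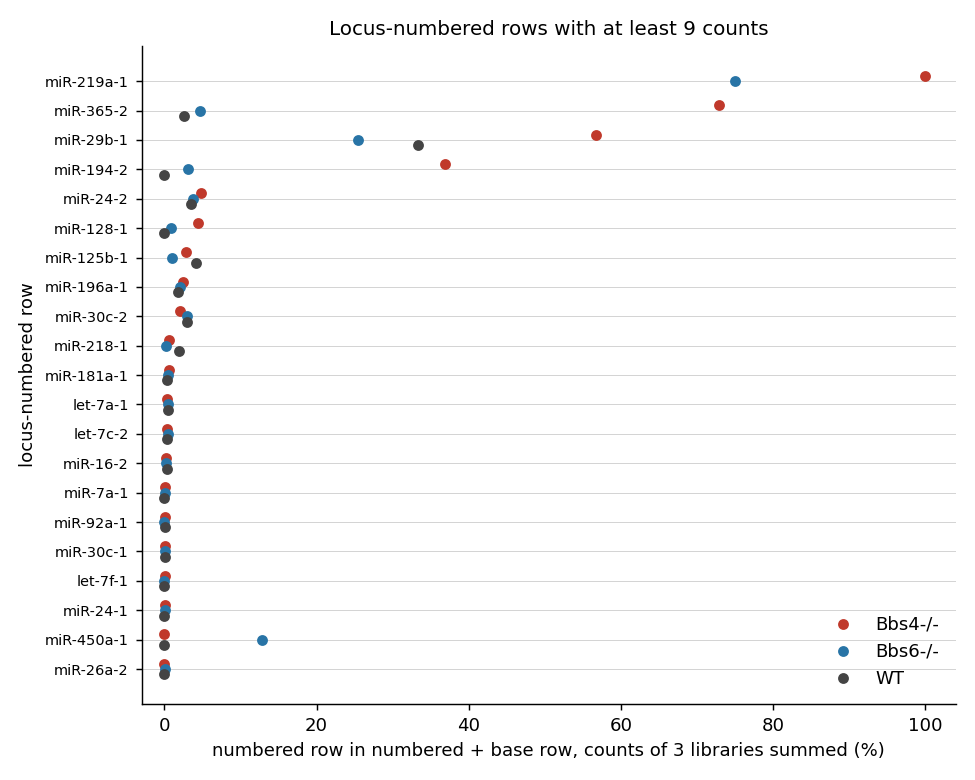
Share of the numbered row in the sum of numbered and base row (%, x axis), counts of 3 libraries summed, for the 21 numbered rows with at least 9 counts (y axis), by genotype. Most lie near 0% in all lines; miR-365-2 is at 72.9% in Bbs4-/-, 4.62% in Bbs6-/- and 2.56% in WT, and miR-194-2 at 36.8%, 3.05% and 0%. In miR-219a-1 no WT share is drawn, since both rows had no WT count.

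The miRNA whose pattern was most like that of miR-365-2 was miR-194-2, with a Pearson correlation of log2 CPM of 0.95 over the 9 libraries among 306 rows ranked. The 9 libraries form 3 lines, so this value mostly describes a difference between Bbs4-/- and the rest. By name the row is miR-194-2-3p (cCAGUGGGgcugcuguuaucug, seed in capitals, from chr19:6264694-6264715, plus strand, RefSeq), printed because it too is the numbered arm of a 2-gene miRNA. It had 11, 17 and 35 counts in Bbs4-/-, 0, 1 and 3 in Bbs6-/- and none in WT. Its base row miR-194 had 19, 28 and 61 counts in Bbs4-/-, 41, 42 and 44 in Bbs6-/- and 0, 10 and 16 in WT. Scaled, this was 129 ± 11.4, 165 ± 52.8 and 64.2 ± 56.0 CPM (SD, n = 3 each). Unlike for miR-365, every library of either mutant lay above every WT library, although miR-194 was not called in any of the 3 comparisons, and the mutants overlapped. miR-194-2 made up 36.8% of both rows in Bbs4-/- (95% Clopper-Pearson interval of the pooled counts 29.6 to 44.5%), 3.05% in Bbs6-/- (0.838 to 7.63%) and 0% in WT (up to 13.2%). The partner on the same chromosome 19 transcript, miR-192, was at 79.4 ± 28.3, 108 ± 57.9 and 76.1 ± 74.4 CPM in Bbs4-/-, Bbs6-/- and WT (SD, n = 3 each), with overlapping libraries. At the other locus of that family miR-194-1 had no count, and miR-215 had at most 4 counts in a library. Since miR-194-2 was picked for its likeness to miR-365-2, the like pattern of both rows restates that choice.

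The miR-23, miR-27 and miR-24 clusters have the same layout and did not show it. miR-24-2 made up 4.75% of miR-24-2 plus miR-24 in Bbs4-/-, 3.74% in Bbs6-/- and 3.44% in WT, and its level was 520 ± 35.6, 504 ± 149 and 485 ± 37.1 CPM. miR-24-1 had at most 6 counts in a library. The partner miR-23a was at 12238 ± 777, 12501 ± 2098 and 12666 ± 2899 CPM, and miR-23b at 3804 ± 277, 4393 ± 629 and 2794 ± 571 CPM (SD, n = 3 each).

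After miR-194-2, the rows most like miR-365-2 were miR-7070 (r = 0.93, at most 6 counts in a Bbs4-/- library and none elsewhere), miR-128 (0.92), miR-30a (0.91) and miR-504 (0.90). Ranked by Spearman's correlation, or with total counts in place of TMM, 3 of these 5 remained among the top 5. miR-128 ranged from 447 to 525 CPM in Bbs4-/-, from 238 to 368 CPM in Bbs6-/- and from 232 to 267 CPM in WT. miR-30a, an abundant miRNA of kidney epithelium, ranged from 44216 to 47167 CPM in Bbs4-/- and from 26039 to 34200 CPM in the other lines. For both, the Bbs4-/- libraries lay above all others, by a far smaller factor than for miR-365-2. miR-504 had 13, 29 and 12 counts in Bbs4-/-, 0, 6 and 0 in Bbs6-/- and none in WT. It was called in Bbs4-/- against WT but not between the mutants, and passed the filter only through its Bbs4-/- counts. The mesenchymal marker miR-143 had 119 to 255 CPM in Bbs4-/-, 20.0 to 64.9 CPM in Bbs6-/- and 53.4 to 142.2 CPM in WT. It was chosen after its values were seen, and the rest of the muscle and mesenchyme list did not follow it. miR-206, which makes up most of that list, had a mean of 1739 CPM in Bbs4-/-, 2010 CPM in Bbs6-/- and 1170 CPM in WT, miR-199a had at most 4 counts in a library, and miR-133b, miR-145a and miR-214 were at 0 throughout. The part of these markers in the level of miR-365-2 was not tested.

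The 3 rows most like miR-365 were miR-146a (r = 0.97), miR-6937 (0.73) and miR-155 (0.72). miR-146a, which restrains inflammatory signalling through NF-kappaB, had 17, 5 and 59 counts in Bbs4-/-, 42, 31 and 30 in Bbs6-/- and 23, 22 and 45 in WT, and shared with miR-365 a low count in Bbs4-/- replicate 2. For miR-193a they were miR-872 (0.82), miR-204 (0.78) and miR-574 (0.75). Among the members, the correlation was 0.38 between miR-365 and miR-193a, -0.44 between miR-365-2 and miR-365, and -0.09 between miR-365-2 and miR-193a. These values rest on few counts and on 9 libraries that share their lines, and are given as a description.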

How the data were processed

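Small RNA of 9 smEV pellets was sequenced. As stated in the methods, the authors trimmed adapters (cutadapt 1.9 per the labels), discarded poor and short reads, collapsed PCR duplicates by unique molecular identifiers and quantified miRNAs with miRDeep2. Where a miRNA had more than a single entry, its highest count was kept. The deposited values are raw counts. The processing notes name GRCm38. The miRBase release was not given in the sources used here.

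Genotypes were taken from the sample titles. Column numbers of Bbs6-/- and WT (2, 3, 4 and 1, 3, 4) differ from the titles, so these columns were used as replicates without being tied to a sample. A deposited count stands for a read after identifier collapsing, and intervals and limits cover counting error only.

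Fits were made with edgeR 4.0.16 under R 4.3.3 (TMM, quasi-likelihood test, Benjamini-Hochberg adjustment), on the 6 libraries of a mutant and WT (row total of at least 6 counts) or on all 9 for the direct contrast (at least 9). Standard errors were derived from the log2 fold change and the F statistic. Alternatives were DESeq2 1.42.0, DESeq2's size factors, total counts, no filter, other sets of libraries, a replicate block, an adjusted p under 0.05, merged identical rows, and leaving out each library. CPM used TMM over 9 libraries, and log2 CPM a prior count of 2. Sequences and positions came from RefSeq (GRCm38.p6) and GENCODE vM21, and 1026 of 1164 row names matched a RefSeq mature name without its arm. Named rows were the members, the 5 rows most like miR-365-2 and 3 each most like miR-365 and miR-193a, the miR-194 and miR-24 clusters, and numbered rows that were called or exceeded their base row. Some further numbered rows are named for having no WT count or identical counts. miR-143, miR-200c, miR-141, miR-206 and other markers came from the marker lists. Members, lists and tests were chosen with earlier results of these data known. Figures were drawn with matplotlib 3.10.9.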

Additional observations from a re-analysis of the deposited data

How the results depend on the processing

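Of 180 values recomputed for 18 results under the alternatives, 174 stayed within their error, or within 1.5 times for a count, and none that had been called changed sign. The number of miRNAs called in Bbs6-/- against WT was 12, and 20 with a replicate block by the numbers in the column names, fitted on all 9 libraries. Under the same block the log2 fold change of miR-193a in Bbs4-/- against WT was 0.20 in place of -0.57, and that of miR-365-2 was 5.58. Columns with the same number did not deviate together throughout, with correlations from -0.13 to 0.37 over 6 pairs (mean 0.11). Over the 21 pairs with unlike numbers, correlations ran from -0.29 to 0.15 (mean -0.03), so those of the same number were higher on average. The numbers were not taken to pair the libraries, and whether libraries of the same number were prepared together was not tested. Leaving out single libraries, 7 to 18 miRNAs were called between the mutants, 16 to 23 in Bbs4-/- and 8 to 18 in Bbs6-/- against WT. The log2 fold change of miR-365-2 then ranged from 5.42 to 8.34 against WT and from 4.89 to 6.18 against Bbs6-/-, and its share in Bbs4-/- from 72.1% to 82.3%. The log2 fold change of miR-193a between the mutants took either sign, from -0.41 to 0.42, and also changed sign with DESeq2's size factors (-0.03). Scaling by total count moved the median log2 fold change of all miRNAs by -0.18 in Bbs4-/- and by -0.43 in Bbs6-/- against WT, and by 0.11 between the mutants. The cause of these shifts was not tested. Depth limits what low rows such as miR-193b and miR-365-1 can show, since 3 counts in the shallowest WT library are 36.5 CPM.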
